A study of Sus scrofa with 26 samples.

Results

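Adipokines are proteins that fat cells and their neighbours release into the blood or use locally to signal energy stores, lipid handling and immune state. The 9 genes described here cover several kinds of such proteins. LEP encodes leptin, a hormone that reports fat stores to the brain and restrains appetite, and ADIPOQ encodes adiponectin, which improves insulin action in liver and muscle. RETN encodes resistin, a hormone first described in mouse fat, which human tissue makes mainly in macrophages. RBP4 encodes the blood carrier of retinol, CFD encodes adipsin, the protease that starts the alternative complement pathway together with factor B, and RARRES2 encodes chemerin, a ligand of immune cells and fat cells. NAMPT encodes the enzyme that recycles nicotinamide towards NAD and is also secreted under the name visfatin. AGT encodes angiotensinogen, the precursor of the angiotensin peptides, and ANGPTL4 encodes an inhibitor of lipoprotein lipase, the enzyme that releases fatty acids from circulating triglycerides.

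The genes were chosen by name, with earlier results of these data known. A probe belonged to a member when the gene name, accession or description columns of the array files named that gene, which found 37 of 60305 probes and 9 of 11981 named genes. Of these, 35 probes were tested, that is, they were well above background on at least 8 of 26 arrays, and each of the 9 members kept at least 1 tested probe. There were 3 probes for LEP, 9 for ADIPOQ, 3 for RETN, 4 for RBP4, 2 for CFD, 3 for NAMPT, 2 for RARRES2, 7 for AGT and 4 for ANGPTL4. The 2 probes left out both belonged to RETN. Each gene is described by its brightest tested probe, and the other probes are given where they differ.

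RNA of subcutaneous adipose tissue (SCAT, back fat) from 26 growing castrated male pigs was hybridised to 26 one-colour arrays, with 1 pig per array. The pigs were Creole, Large White (LW) or their cross (F1). They were slaughtered either at thermoneutrality (TN, 24 °C) or after heat stress (HS), given as 30 °C in the labels and as 32 °C for 5 days in the text of the series. There were 3 Creole, 4 F1 and 4 LW pigs in TN and 5 pigs of each breed in HS, hence 11 TN and 15 HS arrays. TN pigs were killed before the temperature rose, so that temperature, day of slaughter and age cannot be told apart. The study reported that feed intake fell in the heat, so temperature and feed intake cannot be told apart either. Littermates were spread over the groups and pens were shared, but parents, pens and days are not in the labels and did not enter the model, so the p-values treat the 26 pigs as independent. The tissue expressed fat cell genes. All 15 adipocyte markers on the array were tested, with FABP4 at a mean log2 intensity of 18.35 in TN and 18.36 in HS and PLIN1 at 15.83 and 15.78. Arrays of a group correlated between 0.97 and 0.99 across probes, and no spot was saturated.

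The probes are 60 bases long, and their sequences show what each value measures. The following are shown as examples, in lower case, with the probe number of the array after the gene. Capitals in the second LEP probe mark a piece that is discussed with leptin, and capitals in the last pair mark the 57 bases that the 2 ANGPTL4 probes share. The second LEP line gives bases 31 to 60 of that probe and the RARRES2 line bases 1 to 30.
LEP A_72_P442233: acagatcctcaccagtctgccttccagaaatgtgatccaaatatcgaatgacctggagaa
LEP A_72_P165551: gaaaataccagagTTCCCTTGTGGCacaga
ADIPOQ A_72_P767053: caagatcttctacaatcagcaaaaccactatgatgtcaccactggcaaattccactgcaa
RETN A_72_P177496: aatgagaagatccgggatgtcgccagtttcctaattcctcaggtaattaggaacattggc
RBP4 A_72_P146486: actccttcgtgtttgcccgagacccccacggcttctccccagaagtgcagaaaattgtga
RBP4 A_72_P531116: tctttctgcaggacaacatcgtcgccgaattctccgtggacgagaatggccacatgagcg
RARRES2 A_72_P381353: ttcccaggacaatttgcctttttcaaagcc
ANGPTL4 A_72_P165341: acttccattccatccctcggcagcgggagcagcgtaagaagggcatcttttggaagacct
ANGPTL4 A_72_P359633: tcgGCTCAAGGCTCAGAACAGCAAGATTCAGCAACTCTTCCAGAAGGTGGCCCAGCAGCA
ANGPTL4 A_72_P718758: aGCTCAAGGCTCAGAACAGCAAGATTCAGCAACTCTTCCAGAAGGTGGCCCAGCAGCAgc

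The first 2 lines show that leptin was measured at different places of its transcript. The 2 RBP4 probes shown do not overlap, so their values are separate readings of that transcript, whereas the last ANGPTL4 pair is nearly 1 reading. Identical sequences were also spotted under other numbers. LEP probe A_72_P442233 was present in 2 copies, which correlated across arrays at r = 0.91. The RETN probe A_72_P177496, shown because neither it nor its identical copy was detected on enough arrays to be tested, and that copy correlated at r = 0.17 at signals near the background. The 2 CFD probes shared 52 bases, 3 ADIPOQ probes shared stretches of 29 to 43 bases and a further ADIPOQ pair shared 26, so that the number of probes called in a gene is not a number of independent measurements.

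The main comparison asked which genes differed between HS and TN after correction for breed. Of 9 members, 4 were higher in HS and none was lower. The 4 were ADIPOQ, RBP4, CFD and RARRES2, with log2 differences between 0.16 and 0.58. Over all 10314 named genes tested in the same way, 12.6% were called, 4.96% higher and 7.66% lower. The median log2 difference of the members was 0.16, and that of all tested genes was 0.00. At the level of probes, 15 of 35 were called higher and 0 lower, against 5.18% and 7.02% of all 44703 tested probes. Calls were made with limma at a Benjamini-Hochberg adjusted p under 0.05 over all tested probes, and the unadjusted p was under 0.05 for 4 of 9 members and for 2905 of 10314 genes.

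**Figure D1:**
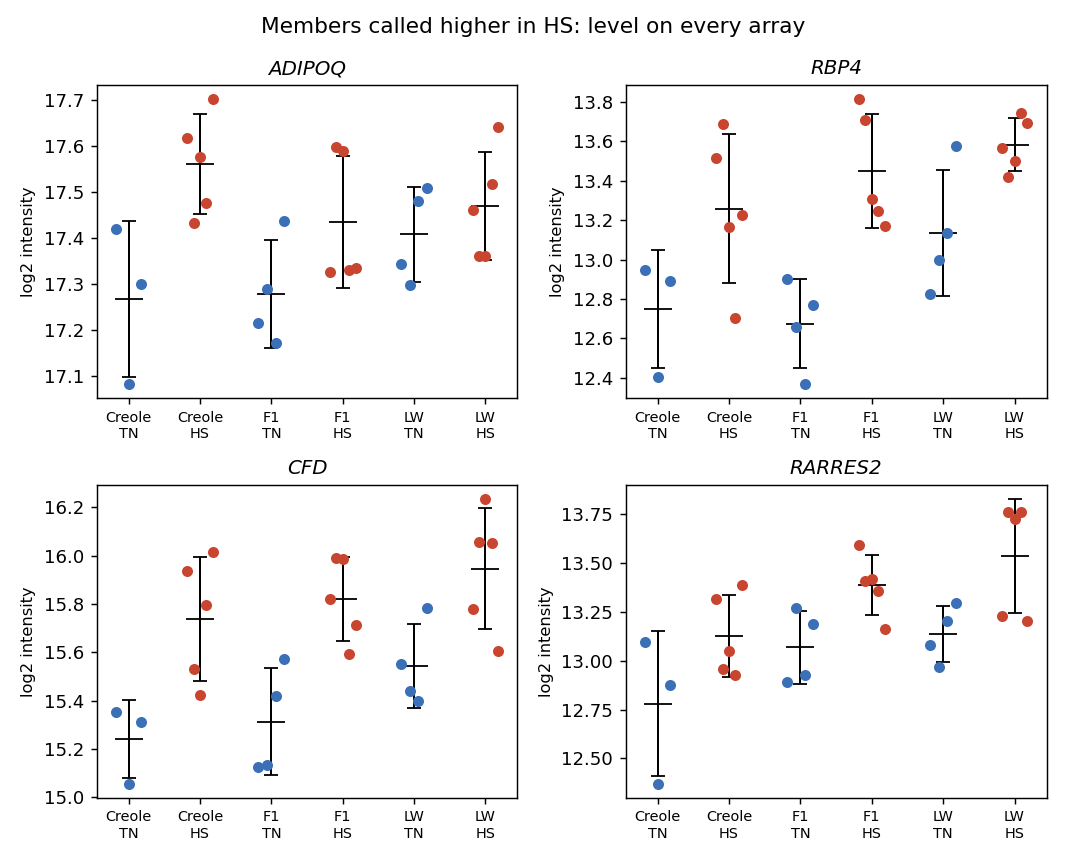
Log2 intensity on every array for the 4 genes called higher in HS (y axis) in the 6 breed and temperature groups (x axis). Points are pigs, blue for TN and red for HS, bars are the group mean and its SD. In CFD and RARRES2 all 15 HS pigs lay above the TN mean of their breed.

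RBP4 showed the highest increase on the log2 scale among the members. In TN the log2 intensity of RBP4 was 12.95, 12.40 and 12.89 in the Creole pigs, 12.90, 12.66, 12.37 and 12.77 in the F1 pigs and 12.83, 13.00, 13.13 and 13.58 in the LW pigs. In HS it was 13.52, 13.69, 13.16, 12.70 and 13.23 in the Creole, 13.81, 13.71, 13.31, 13.24 and 13.17 in the F1 and 13.56, 13.42, 13.50, 13.74 and 13.69 in the LW pigs. The pooled ranges overlapped, since the LW pigs in TN reached 13.58 and the lowest Creole pig in HS was at 12.70. TN pigs averaged 12.86 ± 0.33 (SD, n = 11), and HS pigs averaged 13.43 ± 0.30 (SD, n = 15), a log2 difference of 0.58 (SE 0.11, 95% interval 0.36 to 0.80, adjusted p = 0.00113). This was 1.5-fold, and 14 of 15 HS pigs lay above the TN mean of their breed. In F1 pigs every HS value was above every TN value. All 4 probes were called, with log2 differences from 0.46 to 0.58 and adjusted p from 0.00113 to 0.0096, including the 2 non-overlapping probes printed above. Of 5 slides, 4 held a breed at both temperatures, and within these the difference was positive in 4 of 4, from 0.37 to 0.86, and with slide as a block it was 0.53 (adjusted p = 0.00118).

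CFD had the smallest adjusted p of the members. Creole pigs in TN had CFD at log2 intensities of 15.35, 15.06 and 15.31, F1 pigs at 15.13, 15.13, 15.42 and 15.57 and LW pigs at 15.55, 15.44, 15.40 and 15.78. After heat the Creole pigs were at 15.94, 15.53, 15.42, 15.79 and 16.01, the F1 pigs at 15.82, 15.99, 15.99, 15.59 and 15.71 and the LW pigs at 15.78, 16.06, 16.24, 16.05 and 15.60. The Creole and F1 groups did not overlap between temperatures, and in LW pigs 3 of 5 HS values lay above all TN values. TN pigs averaged 15.38 ± 0.22 (SD, n = 11), and HS pigs averaged 15.84 ± 0.23 (SD, n = 15), and the log2 difference was 0.47 (SE 0.08, 95% interval 0.31 to 0.63, adjusted p = 0.000626), or 1.38-fold. All 15 HS pigs were above the TN mean of their breed. The second CFD probe, which overlaps the first, gave 0.48 (adjusted p = 0.000369). Within slides the difference was positive in 4 of 4, from 0.17 to 0.78, and with slide as a block it was 0.47 (adjusted p = 0.000864).

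RARRES2 rose less. In TN the log2 intensity of RARRES2 was 13.10, 12.37 and 12.88 in the Creole pigs, 12.89, 13.27, 12.93 and 13.19 in the F1 pigs and 13.08, 12.97, 13.21 and 13.29 in the LW pigs. In HS it was 13.32, 12.96, 13.05, 12.93 and 13.39 in the Creole, 13.59, 13.41, 13.42, 13.36 and 13.16 in the F1 and 13.23, 13.76, 13.73, 13.76 and 13.21 in the LW pigs. The temperatures overlapped in each breed, but all 15 HS pigs were above the TN mean of their breed. TN pigs averaged 13.02 ± 0.26 (SD, n = 11), and HS pigs averaged 13.35 ± 0.27 (SD, n = 15), with a log2 difference of 0.36 (SE 0.09, 95% interval 0.18 to 0.53, adjusted p = 0.00777), or 1.28-fold. Its other probe, A_72_P496764, was dim, well above background on 22 arrays, and gave 0.13 (adjusted p = 0.162). That probe followed the bright one weakly across pigs of the same group (r = 0.33), so chemerin rests on 1 probe. Within slides the difference was positive in 3 of 4, from -0.14 on slide 2 to 0.61, and with slide as a block it was 0.35 (adjusted p = 0.0144).

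ADIPOQ rose by the smallest amount, at 1.12-fold. Creole pigs in TN had ADIPOQ at log2 intensities of 17.42, 17.08 and 17.30, F1 pigs at 17.22, 17.29, 17.17 and 17.44 and LW pigs at 17.34, 17.30, 17.48 and 17.51. After heat the Creole pigs were at 17.62, 17.43, 17.58, 17.48 and 17.70, the F1 pigs at 17.33, 17.60, 17.59, 17.33 and 17.33 and the LW pigs at 17.46, 17.36, 17.36, 17.52 and 17.64. Creole pigs did not overlap between temperatures, whereas F1 and LW pigs did. TN pigs averaged 17.32 ± 0.13 (SD, n = 11), and HS pigs averaged 17.49 ± 0.13 (SD, n = 15), and the log2 difference was 0.16 (SE 0.05, 95% interval 0.06 to 0.27, adjusted p = 0.0379). In all, 13 of 15 HS pigs were above the TN mean of their breed. The brightest probe showed the smallest difference of the 9, which ranged from 0.16 to 0.29, and 8 of 9 probes were called. The exception was A_72_P503732 with 0.19 (adjusted p = 0.0826), and the probe printed above gave 0.21 (adjusted p = 0.0416). The mean of the 9 probes gave 0.23 (adjusted p = 0.0128). The call of the brightest probe was lost in 12 of 26 fits that left out 1 array, where the adjusted p lay between 0.051 and 0.0823, and within slides the difference was positive in 4 of 4, from 0.01 to 0.25. With slide as a block it was 0.16 (adjusted p = 0.0424). The call was lost with 75th percentile scaling, at 0.11 (adjusted p = 0.206), with no filter on dim probes (adjusted p = 0.0515) and without the 2 arrays of highest LEP level (adjusted p = 0.0866). Numbering the pigs of a group in the order given above, the call was lost without Creole HS pigs 1 or 5, Creole TN pigs 2 or 3, F1 HS pigs 2 or 3, F1 TN pigs 1 or 3, LW HS pigs 4 or 5 or LW TN pigs 1 or 2.

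**Figure D2:**
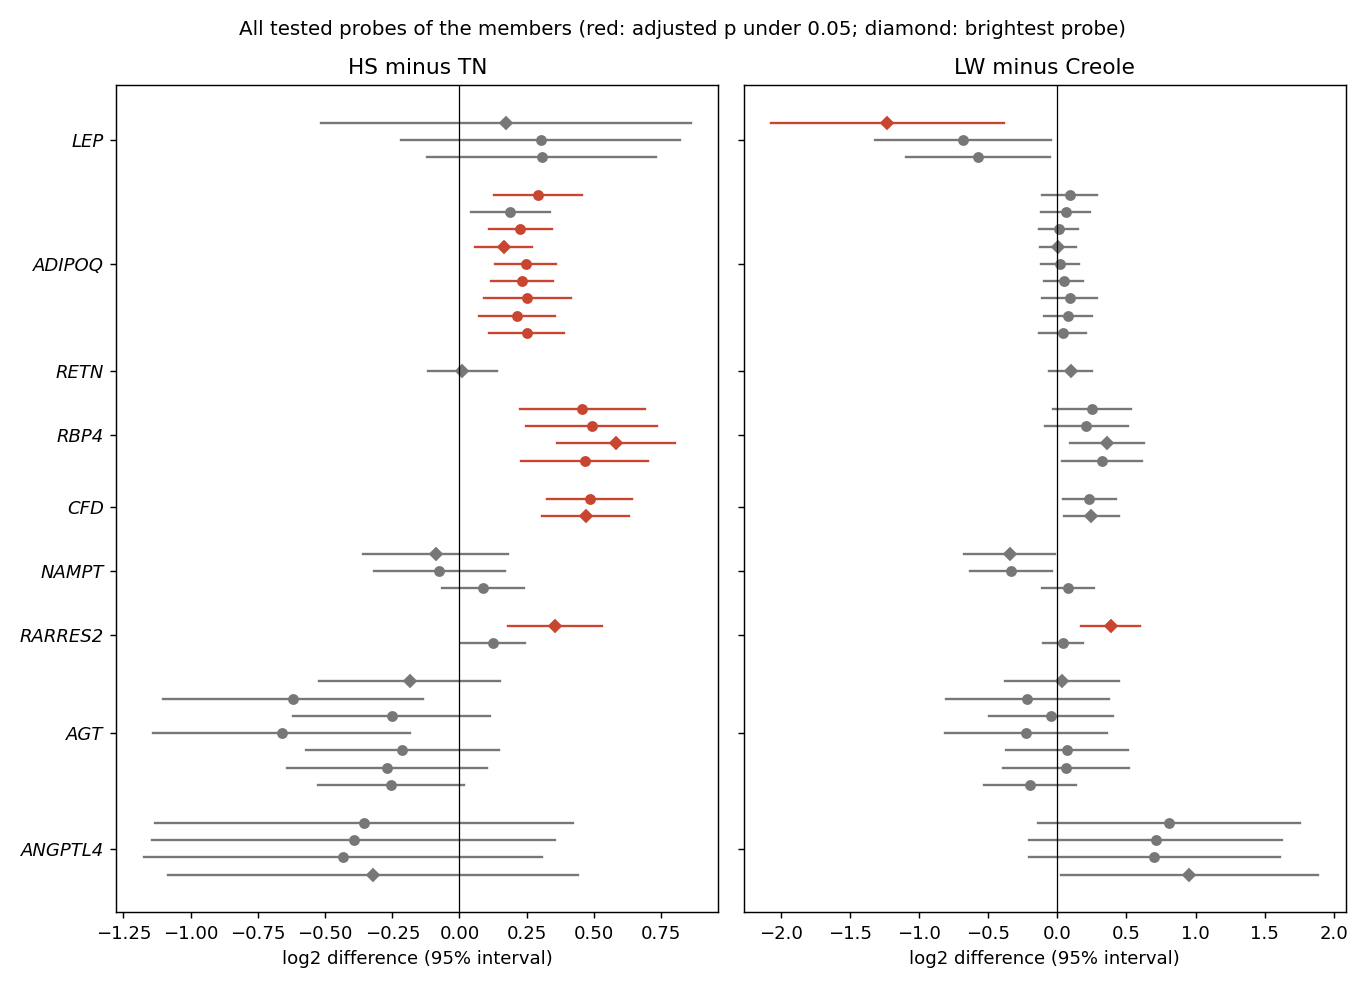
Log2 difference of every tested probe of the 9 genes with its 95% interval (x axes), HS minus TN on the left and LW minus Creole on the right, grouped by gene (y axis). Red marks an adjusted p under 0.05 and the diamond the brightest probe of a gene. In HS minus TN, 15 of 35 probes are red, all to the right of 0.

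These 4 genes were read beside the markers of other cells in the tissue, since the tissue was measured whole and more cells of a type cannot be told apart from more RNA per cell. The score of a marker list is the average, over the genes listed, of each log2 intensity after that gene's average across arrays was subtracted. The red blood cell score ranged from -0.03 to 0.57 in TN and from -0.49 to 0.37 in HS, and was lower in HS by 0.31 (permutation p = 0.00119, adjusted over 10 lists 0.00595), with 2 of its 5 tested genes called lower. The fibroblast and matrix score was higher by 0.26 (adjusted permutation p = 0.0311), ranging from -0.84 to 0.26 in TN and from -0.26 to 0.53 in HS, with 6 of 17 genes called higher. With 75th percentile scaling it was higher by 0.19 and was not called (adjusted permutation p = 0.0868). The nerve and Schwann cell score was higher by 0.33 (adjusted permutation p = 0.0053), from -0.51 to 0.14 in TN and from -0.21 to 0.59 in HS, with 3 of 10 genes called higher. The adipocyte score, from -0.11 to 0.21 in TN and from -0.25 to 0.23 in HS, was lower by 0.11 (adjusted permutation p = 0.151), and 1 of its 15 genes was called lower. With 75th percentile scaling the adipocyte score differed by -0.197 and was called lower (adjusted permutation p = 0.0353). The keratinocyte and skin gland score had the largest difference of the 10 lists, 0.73 (adjusted permutation p = 0.151), from -1.26 to 1.61 in TN and from -1.02 to 2.24 in HS, with 2 of 7 genes called higher, KRT18 by 1.097 (adjusted p = 0.00246) and KRT8 by 0.57 (adjusted p = 0.0299). The macrophage score differed by 0.17 (adjusted permutation p = 0.159), with 0 of 11 genes called by limma.

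With the red blood cell score as a covariate, 1 of 9 members was called, namely RBP4 with 0.55 (adjusted p = 0.0477). CFD was then at 0.37 (adjusted p = 0.0569), RARRES2 at 0.28 (adjusted p = 0.188) and ADIPOQ at 0.13 (adjusted p = 0.332). In that fit 528 probes were called in place of 5452. With the fibroblast and matrix score as a covariate, RBP4 at 0.52 (adjusted p = 0.0192) and CFD at 0.37 (adjusted p = 0.0162) were called, RARRES2 was at 0.17 (adjusted p = 0.171) and ADIPOQ at 0.13 (adjusted p = 0.22). With the nerve and Schwann cell score, RBP4 at 0.73 (adjusted p = 0.011), CFD at 0.47 (adjusted p = 0.0258) and RARRES2 at 0.45 (adjusted p = 0.0369) were called, and ADIPOQ was at 0.17 (adjusted p = 0.174). The fibroblast fit called 1787 probes and the nerve fit 1317, in place of 5452. Whether these cells contribute to the differences was not tested.

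Within each breed the same 4 genes had positive differences, and none reached the threshold after adjustment. RBP4 differed by 0.51 (adjusted p = 0.33) in Creole, 0.77 (adjusted p = 0.0544) in F1 and 0.45 (adjusted p = 0.205) in LW pigs. CFD differed by 0.50 (adjusted p = 0.216) in Creole, 0.51 (adjusted p = 0.0871) in F1 and 0.40 (adjusted p = 0.137) in LW pigs. RARRES2 differed by 0.35, 0.32 and 0.40 and ADIPOQ by 0.29, 0.16 and 0.06 in the same order. Of the 9 members, 4 had an unadjusted p under 0.05 in Creole pigs, 3 in F1 pigs and 3 in LW pigs, against 1166, 1637 and 1868 of 10314 genes, and 0 members were called by limma in any breed. The smallest adjusted p was 0.0544, for RBP4 in F1 pigs, and it lay between 0.0456 and 0.247 over 14 other settings, 5 of which called it. The same tests called 0.0582% of genes in Creole, 0.427% in F1 and 1.45% in LW pigs. The test of the breed by temperature interaction called 0 of 9 members, with 0 unadjusted p under 0.05 and a smallest adjusted p of 0.897, and 0 of 10314 genes (0%), so no member is shown to respond differently between breeds.

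The other 5 members were not called for HS minus TN.

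**Figure D3:**
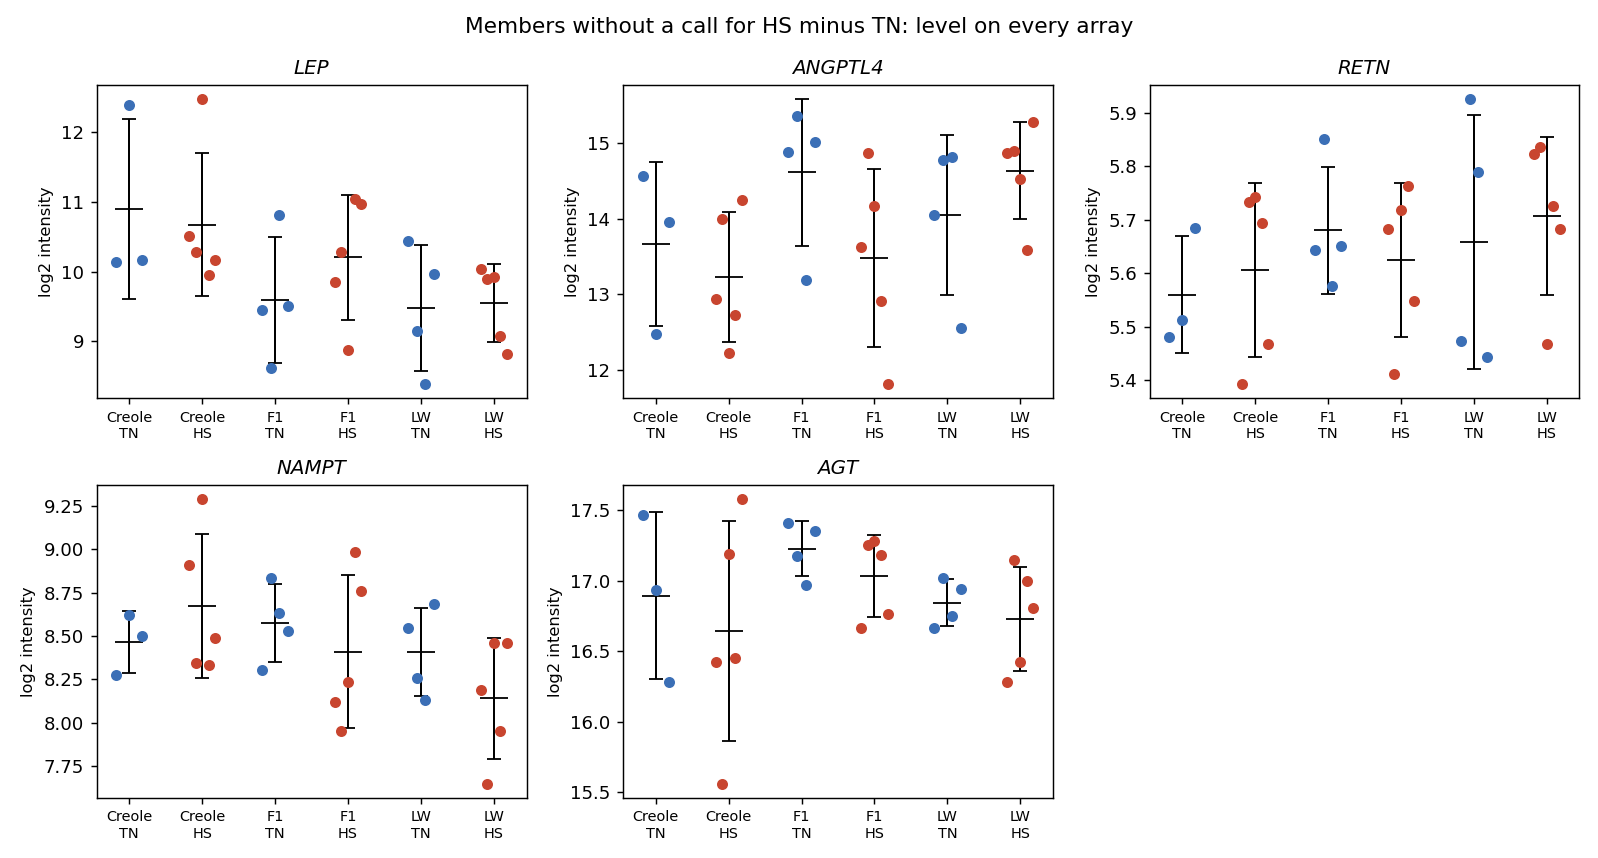
Log2 intensity on every array for the 5 genes not called for HS minus TN (y axis, a scale for each gene) in the 6 groups (x axis), with points, colours and bars (mean and SD) as for the called genes. A Creole pig of each temperature stands above the others in LEP, at 12.40 in TN and 12.48 in HS, and the 26 values of RETN span 0.53.

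LEP spanned 4.09 on the log2 scale, or 17.1-fold, across the 26 pigs, the widest range of the members, and its SD of 0.99 was below that of ANGPTL4, 1.03. In TN the log2 intensity of LEP was 10.14, 12.40 and 10.16 in the Creole pigs, 9.44, 8.61, 10.81 and 9.51 in the F1 pigs and 10.44, 9.14, 8.39 and 9.96 in the LW pigs. In HS it was 10.52, 10.28, 12.48, 9.94 and 10.16 in the Creole, 9.85, 10.28, 8.87, 11.05 and 10.98 in the F1 and 10.04, 9.89, 9.92, 9.07 and 8.82 in the LW pigs. The highest TN and the highest HS value both came from Creole pigs, and the temperatures overlapped in each breed. The log2 difference was 0.17 (SE 0.33, 95% interval -0.51 to 0.86, adjusted p = 0.785), and 8 of 15 HS pigs lay above the TN mean of their breed. By breed it was -0.22 in Creole, 0.61 in F1 and 0.07 in LW pigs, with an adjusted p of 0.935 for the interaction. The other probes, A_72_P442233 and its copy, gave 0.30 (adjusted p = 0.476) and 0.31 (adjusted p = 0.363), and followed the brightest probe across pigs of a group (r = 0.95 and 0.93). The brightest LEP probe holds TTCCCTTGTGGC (in capitals above), a piece that other probes also hold. On either strand 6 of 60305 probes (0.00995%) held these 12 bases, and 5 of them were not probes of the members, 1 of these 5 being an unnamed copy of this LEP probe.

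ANGPTL4 spanned 3.54 on the log2 scale, or 11.6-fold. Creole pigs in TN had ANGPTL4 at log2 intensities of 14.56, 12.47 and 13.96, F1 pigs at 14.88, 15.36, 13.19 and 15.01 and LW pigs at 14.05, 14.77, 14.81 and 12.55. After heat the Creole pigs were at 12.94, 14.00, 12.22, 12.73 and 14.25, the F1 pigs at 13.63, 14.87, 14.16, 12.91 and 11.82 and the LW pigs at 14.86, 14.89, 14.52, 13.59 and 15.28. The highest and lowest values both came from F1 pigs, 15.36 in TN and 11.82 in HS. The log2 difference was -0.32 (SE 0.37, 95% interval -1.08 to 0.44, adjusted p = 0.621), and 7 of 15 HS pigs were above the TN mean of their breed. It was -0.44 in Creole and -1.13 in F1 pigs, and 0.59 in LW pigs, with 4 of 5 F1 pigs in HS below and 4 of 5 LW pigs in HS above their TN mean. The limma test of the interaction gave an adjusted p of 0.897 for this gene, so this change of sign is not shown to exceed the spread between pigs. The 4 probes moved as 1 (r from 0.99 to 1.00 with the brightest), and their HS minus TN differences ranged from -0.43 to -0.32. The difference of the brightest probe was -1.14 with the red blood cell score as a covariate (adjusted p = 0.148), -0.79 with the fibroblast and matrix score (adjusted p = 0.279) and -0.03 with the nerve and Schwann cell score (adjusted p = 0.986).

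All 7 AGT probes had lower fitted means in HS, from -0.66 to -0.19, and none was called, with adjusted p from 0.0619 to 0.504. In TN the log2 intensity of AGT was 17.47, 16.94 and 16.28 in the Creole pigs, 17.41, 17.18, 16.97 and 17.36 in the F1 pigs and 16.66, 17.02, 16.75 and 16.94 in the LW pigs. In HS it was 16.42, 15.56, 17.19, 16.45 and 17.58 in the Creole, 16.67, 17.26, 17.28, 17.18 and 16.77 in the F1 and 16.28, 17.15, 16.42, 17.00 and 16.81 in the LW pigs. The Creole pigs in HS spread from 15.56 to 17.58 and held both the lowest and the highest value of all pigs. The log2 difference of the brightest probe was -0.19 (SE 0.16, 95% interval -0.52 to 0.15, adjusted p = 0.504). The 2 largest differences, -0.66 for A_72_P514944 and -0.62 for A_72_P127816 (adjusted p = 0.0619 and 0.0837), came from probes that correlated less with the brightest one across pigs of a group (r = 0.46 and 0.47) than the other 4 did (r from 0.91 to 0.99). The brightest probe shares 45 bases with A_72_P568899, so these are not separate readings.

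NAMPT was similar in the means of both temperatures, 8.48 ± 0.22 (SD, n = 11) for TN pigs against 8.41 ± 0.44 (SD, n = 15) for HS pigs. Creole pigs in TN had NAMPT at log2 intensities of 8.27, 8.62 and 8.50, F1 pigs at 8.30, 8.84, 8.63 and 8.53 and LW pigs at 8.55, 8.26, 8.13 and 8.68. After heat the Creole pigs were at 8.91, 8.35, 9.29, 8.33 and 8.49, the F1 pigs at 8.12, 7.95, 8.23, 8.98 and 8.76 and the LW pigs at 8.19, 7.65, 8.46, 7.95 and 8.46. The HS pigs held both the highest value, 9.29 in a Creole pig, and the lowest, 7.65 in an LW pig. The log2 difference was -0.09 (SE 0.13, 95% interval -0.36 to 0.18, adjusted p = 0.707). The probe O12095 gave 0.09 (adjusted p = 0.49) and did not follow the brightest probe across pigs of a group (r = -0.27), unlike A_72_P440276 (r = 0.93).

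RETN lay at the edge of detection. Its brightest probe was well above background on 16 of 26 arrays and its other 2, which have the same sequence, on 0 and 2 arrays. The log2 intensity ranged from 5.44 to 5.93 with a median of 5.64 in TN and from 5.39 to 5.84 with a median of 5.69 in HS. The temperatures overlapped, and the difference was 0.01 (SE 0.06, 95% interval -0.12 to 0.14, adjusted p = 0.931). Signals this close to background compress differences, so this interval does not bound the difference in resistin transcript.

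The next comparison asked whether the breeds differed after correction for temperature. Of 9 members, 2 were called between LW and Creole pigs, RARRES2 higher and LEP lower in LW. Of all named genes tested 15.3% were called, 6.69% higher and 8.62% lower, and the members' median was 0.10 against -0.01 for all genes. The unadjusted p was under 0.05 for 6 of 9 members and for 3172 of 10314 genes. By the test of any difference among the 3 breeds, 1 of 9 was called, RARRES2 with an adjusted p of 0.0354, against 11.8% of all named genes. That call was lost in 9 of 26 fits that left out 1 array.

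RARRES2 had a mean of 13.00 ± 0.31 (SD, n = 8) in Creole, 13.25 ± 0.23 (SD, n = 9) in F1 and 13.36 ± 0.31 (SD, n = 9) in LW pigs. Creole pigs ranged from 12.37 over a median of 13.00 to 13.39, and LW pigs from 12.97 over 13.23 to 13.76. The ranges overlapped, with 3 of 9 LW pigs above every Creole pig and 8 of 9 above the Creole mean. The log2 difference was 0.39 (SE 0.10, 95% interval 0.17 to 0.60, adjusted p = 0.0142), or 1.31-fold. Within the 3 slides where it could be estimated it was 0.54, 0.71 and 0.16. The dim probe A_72_P496764 alone gave 0.04 (adjusted p = 0.745), and the mean of both probes gave 0.21 (adjusted p = 0.0551). Without the temperature covariate the difference of the bright probe was 0.36 (adjusted p = 0.0813). Without the 2 arrays of highest LEP level it was 0.30 (adjusted p = 0.0739), and neither fit called it. The fibroblast and matrix genes also differed between the breeds, with 6 of 17 called higher and 1 lower in LW, and with their score as a covariate the RARRES2 difference was 0.18 (adjusted p = 0.251).

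LEP had a mean of 10.76 ± 1.05 (SD, n = 8) in Creole, 9.93 ± 0.90 (SD, n = 9) in F1 and 9.52 ± 0.68 (SD, n = 9) in LW pigs. Creole pigs ranged from 9.94 over a median of 10.22 to 12.48, and LW pigs from 8.39 over 9.89 to 10.44. All 9 LW pigs lay below the Creole mean, and 6 of 9 lay below every Creole pig. Of the 15 adipocyte markers, 3 were also called lower in LW and 0 higher, namely CIDEA at -0.31, GPD1 at -0.27 and CD36 at -0.23, and their part in the LEP difference was not tested. The log2 difference was -1.23 (SE 0.41, 95% interval -2.07 to -0.39, adjusted p = 0.0439), that is, 2.34-fold lower in LW. The other 2 probes, of 1 sequence, gave -0.68 (adjusted p = 0.141) and -0.57 (adjusted p = 0.13). The call of the brightest probe was lost with no filter on dim probes (adjusted p = 0.0574) or with array weights (adjusted p = 0.0557). It was also lost without the temperature covariate (adjusted p = 0.0504) and with the mean of probes, at -0.83 (adjusted p = 0.0809). Within the 3 slides the difference was -0.31, -1.96 and -1.81. With the fibroblast and matrix score as a covariate it was -0.69 and was not called (adjusted p = 0.393), and with the nerve and Schwann cell score it was -1.67 (adjusted p = 0.0073). Without the Creole TN pig at 12.40 it was -0.95 (adjusted p = 0.113), without the Creole HS pig at 12.48 it was -0.995 (adjusted p = 0.103), and without both it was -0.65 (adjusted p = 0.257). The call was lost in 9 of 26 fits that left out 1 array, with differences from -1.27 to -0.95, and the difference was below 0 in each of the 26. These were the fits without Creole HS pigs 1 or 3, Creole TN pig 2, LW HS pigs 2, 3, 4 or 5 or LW TN pigs 2 or 3.

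ANGPTL4, RBP4, CFD and NAMPT had an unadjusted p under 0.05 between LW and Creole pigs but were not called. LW pigs averaged 14.37 ± 0.85 (SD, n = 9) for ANGPTL4 and Creole pigs 13.39 ± 0.90 (SD, n = 8), a log2 difference of 0.96 (SE 0.45, 95% interval 0.02 to 1.89, adjusted p = 0.161), with 8 of 9 LW pigs above the Creole mean and within-slide values of 0.88, 1.58 and 1.95. With the fibroblast and matrix score as a covariate the ANGPTL4 difference was 0.42 (adjusted p = 0.701) and that of CFD 0.13 (adjusted p = 0.536), and without the 2 arrays of highest LEP level that of ANGPTL4 was 0.59. RBP4 differed by 0.36 (SE 0.13, 95% interval 0.09 to 0.63, adjusted p = 0.0674). With slide as a block the RBP4 difference was 0.415 and was called (adjusted p = 0.0239), while within the 3 slides it was -0.195, 0.42 and 0.48. CFD differed by 0.25 (SE 0.10, 95% interval 0.05 to 0.45, adjusted p = 0.0873), and NAMPT by -0.34 (SE 0.16, 95% interval -0.67 to -0.02, adjusted p = 0.151), with 8 of 9 LW pigs below the Creole mean. ADIPOQ was level between the breeds, with a log2 difference of 0.00 (SE 0.06, 95% interval -0.13 to 0.13, adjusted p = 0.986), and its 9 probes ranged from 0.00 to 0.09. AGT differed by 0.03 (SE 0.20, 95% interval -0.38 to 0.44, adjusted p = 0.938) and RETN by 0.10 (SE 0.08, 95% interval -0.06 to 0.25, adjusted p = 0.419).

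In the order of the 6 group means, neighbours rarely differed by more than the larger of their SDs. ADIPOQ was highest in Creole pigs in HS (17.56 ± 0.11, n = 5), followed by LW (17.47) and F1 pigs in HS (17.43), then LW (17.41), F1 (17.28) and Creole pigs (17.27) in TN. The step from LW TN to F1 TN, 0.13, exceeded the larger SD of 0.12. CFD followed the same split, with LW, F1 and Creole pigs in HS at 15.95, 15.82 and 15.74 above LW, F1 and Creole pigs in TN at 15.54, 15.31 and 15.24, and its step from LW TN to F1 TN, 0.23, exceeded the SD of 0.22. For RBP4 the order was LW, F1 and Creole in HS at 13.58, 13.45 and 13.26, then LW, Creole and F1 in TN at 13.13, 12.75 and 12.68, where the step from LW TN to Creole TN was 0.39 against an SD of 0.32. RARRES2 alone of the 4 mixed the temperatures, with LW TN (13.14) just above Creole HS (13.13), and its step from F1 HS to LW TN, 0.25, exceeded the larger SD of 0.155. The ranges of all neighbouring groups overlapped in these 4 genes. For LEP, ANGPTL4, AGT, NAMPT and RETN, no neighbouring means differed by more than the larger SD.

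F1 pigs were compared with the mean of their parental breeds. By limma 0 of 9 members differed, and 0 of 10314 genes (0%) were called, while the unadjusted p was under 0.05 for 1 member and for 877 genes. AGT had that p, with a log2 difference of 0.35 (SE 0.17, 95% interval 0.00 to 0.70, adjusted p = 0.568). F1 pigs averaged 17.12 ± 0.26 (SD, n = 9) against 16.74 ± 0.68 (SD, n = 8) in Creole and 16.78 ± 0.29 (SD, n = 9) in LW pigs.

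The members were then compared with each other across pigs, after each value was centred on the mean of its breed and temperature group, so that neither factor entered. The values share the array, its RNA and its normalization. Of 36 pairs, 2 had an adjusted permutation p under 0.05 by Pearson's r. LEP and ANGPTL4 ran against each other, with r = -0.66 (permutation p = 0.0023, adjusted 0.0414) and Spearman's rho = -0.65 (permutation p = 0.00272, adjusted 0.0439) over 26 pigs. The r was -0.58 without the 2 pigs of most extreme LEP, and -0.78 in Creole, -0.75 in F1 and -0.37 in LW pigs. CFD and RARRES2 ran together, with r = 0.65 (permutation p = 0.00219, adjusted 0.0414) and rho = 0.64 (permutation p = 0.00291, adjusted 0.0439). Their r was 0.62 without the 2 pigs of most extreme CFD, and 0.73, 0.23 and 0.85 in Creole, F1 and LW pigs, so the relation was weak within F1. With 75th percentile scaling the r of CFD and RARRES2 was 0.58 and did not pass (adjusted permutation p = 0.0739), whereas LEP and ANGPTL4 kept r = -0.655 (adjusted permutation p = 0.0416). Slides held from 4 to 7 arrays and were too small for a value of their own.

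**Figure D4:**
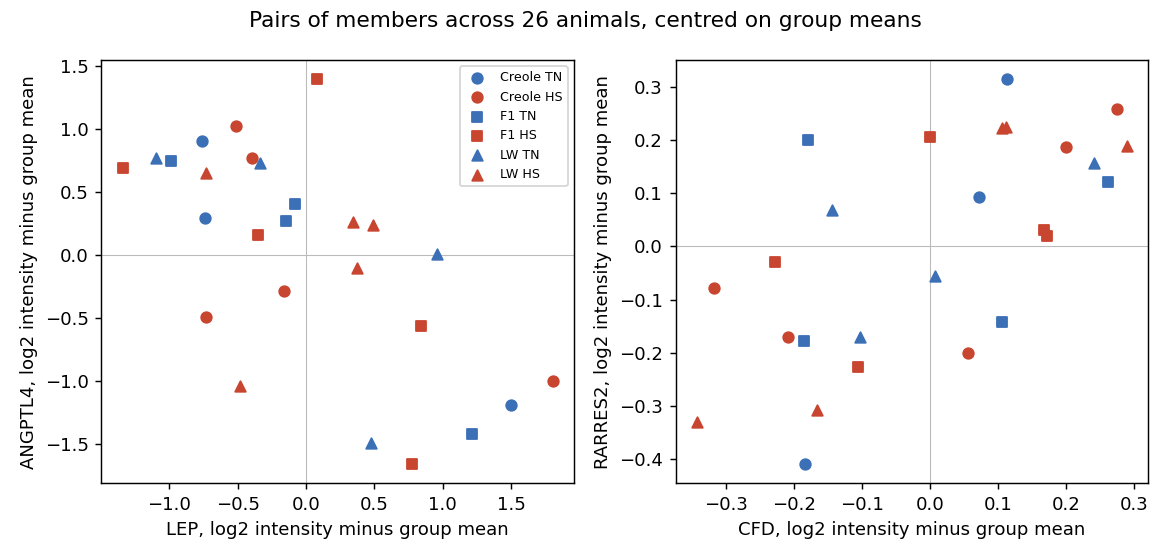
Log2 intensity minus the mean of the pig's group for LEP against ANGPTL4 (left) and CFD against RARRES2 (right), with 1 point per pig. Shapes are breeds, blue is TN and red is HS. The left pair has r = -0.66 and the right pair r = 0.65 over 26 pigs.

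Other pairs did not pass by Pearson's r. LEP and NAMPT had r = 0.51 (permutation p = 0.0128, adjusted 0.106), NAMPT and ANGPTL4 r = -0.52 (permutation p = 0.0147, adjusted 0.106) and LEP and ADIPOQ r = -0.48 (permutation p = 0.0355, adjusted 0.207). CFD and RETN had r = -0.56 (permutation p = 0.00779, adjusted 0.0935), with rho = -0.61 (adjusted 0.0439), at RETN signals near the background. With the mean of all tested probes of a gene in place of the brightest, 7 pairs passed, including the 2 above.

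**Figure D5:**
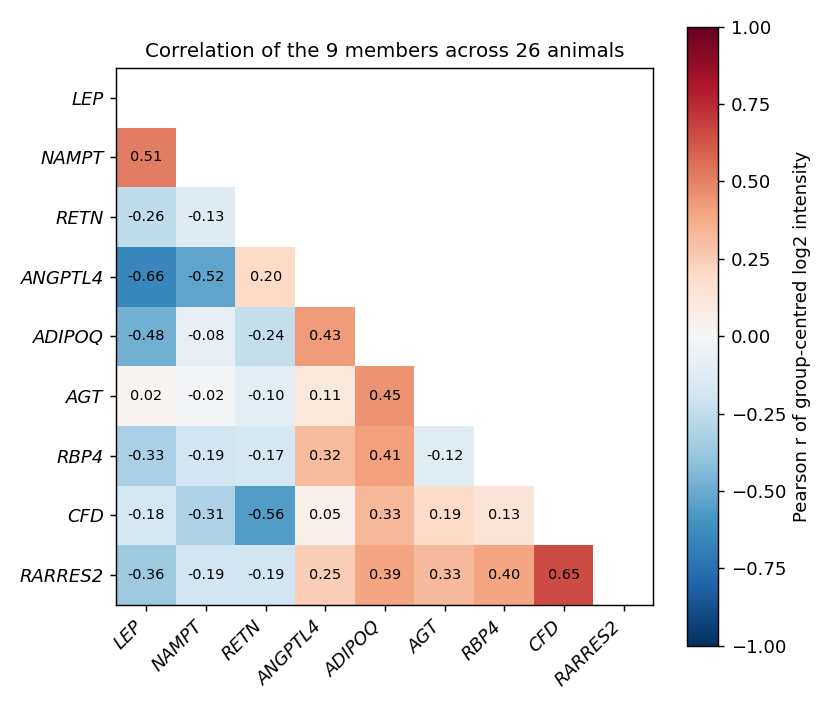
Pearson's r of group-centred log2 intensity for the 36 pairs of the 9 genes over 26 pigs, with genes on both axes and colour from -1 (blue) to 1 (red). The lowest value is -0.66, LEP with ANGPTL4, and the highest 0.65, CFD with RARRES2.

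The genes whose levels were most like each member's, by Pearson's r of group-centred levels over 26 pigs and 10286 other genes, are given as a description. ANGPTL4 was most like CPT1A (r = 0.91), which admits long-chain fatty acids to mitochondria, PDK4 (r = 0.90), which restrains pyruvate oxidation, and BIVM (r = 0.88). LEP was most like SYDE1, KCNK5 and TOB1 (r = 0.84, 0.84 and 0.84). RARRES2 was most like PLXDC1 (r = 0.87), THBS3 (r = 0.87), a matrix protein, and TNXB (r = 0.86), another matrix protein. CFD was most like SERPING1 (r = 0.82), the inhibitor of the first complement component, which was itself higher in HS by 0.35 (adjusted p = 0.0079). For the others the closest gene was FBXO3 for ADIPOQ (r = 0.80), EXOC7 for RBP4 (r = 0.78), DDX47 for NAMPT (r = 0.85), ZNF706 for AGT (r = 0.76) and MAP3K9 for RETN (r = 0.68). Of the like genes named here, only SERPING1 and THBS3 were called for HS minus TN, THBS3 at 0.50 (adjusted p = 0.0195).

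The genes around the members were read from 4 fixed lists with 97 entries, 75 of them tested genes, of which 4 were higher and 2 lower in HS, or 5.33% and 2.67% against 4.96% and 7.66% of all named genes. Of 15 tested receptors and signalling partners, 1 was called, ADIPOR1, a receptor of adiponectin, lower in HS. It fell from a TN mean of 11.78 ± 0.11 (SD, n = 11) to an HS mean of 11.46 ± 0.12 (SD, n = 15), the log2 difference being -0.32 (SE 0.05, adjusted p = 0.000343), and 15 of 15 HS pigs were below the TN mean of their breed. ADIPOR2, the other adiponectin receptor, differed by -0.03 (adjusted p = 0.784). The leptin receptor LEPR and the angiotensin receptor AGTR2 were well above background on 0 arrays. The receptors CMKLR1 and CCRL2, which bind chemerin, differed by -0.01 (adjusted p = 0.967) and 0.00 (adjusted p = 0.995), the retinol uptake receptor STRA6 by 0.03 (adjusted p = 0.903) and AGTR1 by -0.07 (adjusted p = 0.776). CMKLR1 lay near the background, at a mean of 5.86 in TN and 5.85 in HS, where differences are compressed.

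Of 19 tested enzymes and binding partners, 1 rose and 1 fell. Complement component C3, cleaved by the convertase that adipsin helps to form, rose from a TN mean of 9.36 ± 0.33 (SD, n = 11) to an HS mean of 9.81 ± 0.35 (SD, n = 15), by 0.47 (SE 0.11, adjusted p = 0.00661). The gene of factor B, CFB, the substrate of adipsin, differed by 0.01 (adjusted p = 0.973). ENPEP, the aminopeptidase that shortens angiotensin, fell from a TN mean of 9.78 ± 0.25 (SD, n = 11) to an HS mean of 9.35 ± 0.20 (SD, n = 15), the log2 difference being -0.43 (SE 0.09, adjusted p = 0.00256), and 15 of 15 HS pigs were below the TN mean of their breed. ACE, the angiotensin-converting enzyme, differed by 0.15 (adjusted p = 0.167). LPL, the enzyme that ANGPTL4 inhibits, differed by 0.12 (adjusted p = 0.667).

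Of 27 tested other proteins secreted by adipose tissue, 3 rose and 0 fell, with a list median of 0.11. METRNL rose by 0.49 (SE 0.09, adjusted p = 0.00116), VEGFA, the vascular growth factor, by 0.38 (SE 0.11, adjusted p = 0.02) and GRN, the progranulin gene, by 0.24 (SE 0.07, adjusted p = 0.0326). Each was above the TN mean of its breed in 14 of 15 HS pigs. Of 14 tested transcription factors that act on member genes, 0 were called by limma, with a list median of -0.07. PPARG, the adipocyte factor that drives ADIPOQ, differed by 0.12 (adjusted p = 0.339) and CEBPA by -0.10 (adjusted p = 0.589). Between LW and Creole pigs the 75 tested genes of the 4 lists held 8 called higher and 10 called lower in LW, or 10.7% and 13.3% against 6.69% and 8.62% of all named genes, among them LCN2, a secreted lipocalin, at -1.30 (adjusted p = 0.0219) and NRG4, a secreted neuregulin, at -0.54 (adjusted p = 0.00326).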

How the data were processed

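Per the labels and the study's methods, RNA was labelled with 1 dye and hybridised to porcine arrays, which were read with Feature Extraction 10.10.1.1. The deposited scanner files hold the spots' median intensity before normalization. The deposited value table holds log2 values that the authors made by quantile normalization, and was used as an alternative. Here the median intensity was quantile normalized and converted to log2, and probes well above background on at least 8 of 26 arrays were kept, 44703 of 60305. Differences were fitted with limma 3.58.1 in R 4.3.3 (lmFit, eBayes with an intensity trend), with breed and temperature as terms, and p-values were adjusted over all tested probes by Benjamini-Hochberg at 0.05. The model was also run on simulated data with independent noise on each array, so that run does not cover shared litters, pens or days. Probes were named from the files and the RefSeq tables, 14312 by symbol and 9565 by accession; 34597 stayed unnamed. Permutation tests used 1e+05 resamples within groups for pairs and within breeds for scores. The number of pigs limits the precision. Replicates are different pigs, named in accession order. The genes described were the members and pathway genes called or acting directly on a member. Also described were the 3 genes most like each of ANGPTL4, LEP and RARRES2 and the 1 most like each other member. The members and lists were chosen with earlier results of these data known. The alternatives changed background correction, scaling, filter, covariates, slide block, array weights, probe choice and arrays. The files name no genome build, so no coordinates are given.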

Additional observations from a re-analysis of the deposited data

Results flagged for a closer look

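LEP in Creole HS replicate 3 was at a log2 intensity of 12.479, far from the other Creole pigs in HS, of which the nearest was at 10.515. The gap was 0.774 of the range of the 5 pigs, which exceeds the 95% critical value of Dixon's test. Of 45 combinations of a gene and a group of 4 or 5 pigs tested, 1 stood apart in this way, and chance gives about 1 in 20. Creole TN, with 3 pigs, was not tested. Its LEP values were 10.14, 10.16 and 12.40, so the test does not show that only 1 LEP value stood apart.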

How the results depend on the processing

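The 4 members called for HS minus TN numbered 1 with the red blood cell score as a covariate and 2 with the fibroblast and matrix score. It was 3 with 75th percentile scaling, no filter on dim probes, the nerve score or without the 2 arrays of highest LEP level. In each of these ADIPOQ was the call lost. The fibroblast and matrix score, the nerve and Schwann cell score and the fit without the 2 arrays were chosen after seeing the data. Leaving out 1 array gave 3 to 4. RBP4 was called in 15 of 15 alternatives, CFD in 14, RARRES2 in 13 and ADIPOQ in 9. For LW minus Creole the count of 2 was 3 with slide as a fixed block or with the nerve score, where RBP4 was also called. It was 1 with no filter on dim probes or with array weights, where LEP was lost. Without 1 array it was 1 to 3. It was 0 without the temperature covariate, with the mean of probes, without the 2 arrays or with the fibroblast score. For any breed difference the count of 1 was 0 in the same 4 settings, 2 with the nerve score and 0 to 1 without 1 array. Within F1 pigs the count of 0 was 1 with normexp, the filter on all arrays, slide as a random block, array weights or without the 2 arrays, and 0 to 1 without 1 array. The other pathway genes called, 6, were 2 with the red blood cell, 3 with the fibroblast and 3 with the nerve score, 9 with 75th percentile scaling or array weights, 7 with normexp or the mean of probes, and 5 to 10 without 1 array. The pairs called, 2, were 7 with the mean of probes, both among them, and 2 with 75th percentile scaling, where 1 of the 2 was shared and CFD with RARRES2 was lost (adjusted p = 0.0739). With that scaling 3 marker lists passed again, but the adipocyte list in place of the fibroblast and matrix list.

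Changes of sign concerned differences that were not called. ADIPOQ within LW pigs was at -0.006 with 75th percentile scaling and -0.01 with the red blood cell score, and for LW minus Creole at -0.009 without the temperature covariate and -0.035 both without the 2 arrays and with the fibroblast score. RETN for HS minus TN was at -0.005 with normexp and without the 2 arrays. With the red blood cell score NAMPT for HS minus TN was at 0.1 and ANGPTL4 within LW pigs at -0.494. AGT for LW minus Creole was at -0.075 with the mean of probes and -0.076 with the nerve score. LEP within Creole pigs was at 0.076 without the 2 arrays and 0.365 with the fibroblast score, and with the nerve score it was -0.641 for HS minus TN, -0.31 within F1 and -1.223 within LW pigs. Without 1 array, AGT for LW minus Creole ranged from -0.125 to 0.161, LEP within LW pigs from -0.299 to 0.387 and within Creole pigs from -0.673 to 0.527, RETN for HS minus TN from -0.013 to 0.037, ANGPTL4 within Creole pigs from -1.033 to 0.014 and ADIPOQ for LW minus Creole from -0.041 to 0.029. The cause was not tested. Scaling moved the median of all probes by at most 0.016. No paired analysis was possible because the labels give no replicate numbers or litters.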

Other observations

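Some probes without a gene name repeated member sequences or overlapped them. The copy of the brightest LEP probe correlated with it at r = 0.996 and gave -1.121 for LW minus Creole (adjusted p = 0.0506). The copy of an ADIPOQ probe gave 0.299 for HS minus TN (adjusted p = 0.0208) and that of a CFD probe 0.462 (adjusted p = 0.000771). A probe that shares 57 bases with the brightest NAMPT probe gave 0.005 (adjusted p = 0.985).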
